A study of Mus musculus with 13 samples.

Results

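Of the 54532 genes counted in RNA of mouse YUMM1.7 melanoma cells, 44 encode a collagen chain. They were taken by name and not by level: a protein-coding gene of GENCODE M21 (build GRCm38) whose symbol is Col, a type number, the letter a and a chain number. A level is given as CPM, a gene's counts scaled to a library total of 1000000. Over the 12 libraries used, 18 of the 44 genes had a mean of at least 5 CPM, 6 had a mean between 1 and 5 CPM, and 20 had a mean below 1 CPM. Collagens are helical trimers of such chains. Fibrillar collagens form the cables of connective tissue, type IV collagen forms the network of basement membranes, and type VI, the fibril-associated collagens (FACIT) and the others link cells, membranes and fibrils. In skin tumours fibroblasts lay down much of the collagen, but melanoma cells transcribe collagen genes as well.

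The study sequenced total RNA and RNA precipitated with either of the antibodies J2, which binds double-stranded RNA, and Z22, which binds RNA in the left-handed Z form. YUMM1.7 is an established mouse cutaneous melanoma line of wild-type label. Cells had received the solvent DMSO, 10 μM ADAR1i-124 for 12 h (an inhibitor of the RNA editing enzyme ADAR1), 1 μM 5-AZA-CdR for 72 h (5-Aza-CdR below, an inhibitor of DNA methyltransferases), or, as the combination, 1 μM 5-AZA-CdR over 3 days and afterwards 10 μM ADAR1i-124 for a further 12 h. Total RNA gave 3 libraries used here, J2 and Z22 gave 4 each, and IgG, the control antibody, gave 1. The treatment of the cells behind IgG is not given in the sources used here. Its methods split 1 RNA harvest into a precipitated part and an input part, but do not say that the total RNA libraries are that input. Before the antibody was added, DNA and single-stranded RNA were removed with DNase and RNase I. Each condition has 1 library, so no test was run, and every difference below is between 2 libraries with no replicate check.

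Library totals ran from 8167960 counts (Z22 with 5-Aza-CdR) to 34571822 (total RNA with 5-Aza-CdR), so that 3 counts, the least taken as detected, stand for 0.367 and 0.0868 CPM. Gm42418, a gene that overlaps ribosomal RNA sequence, took 34.9% of the counts in Z22 with DMSO and 10.6% to 18.9% in the other precipitated libraries. The total RNA library of the combination was left out: it held 1245894 counts and its gene counts had Spearman correlations of 0.35 to 0.37 with the 12 other libraries, which reached 0.85 to 0.92 among themselves. Of the melanocytic markers, Mitf was at 9.68 to 33.1 CPM, whereas Tyr and Tyrp1 had no count in any library used and Dct, Sox10, Pmel and Mlana stayed below 1 CPM. The pigment genes that define the melanocytic lineage were thus absent or near 0, and Mitf was the 1 marker of 7 at a clear level.

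Because 5-Aza-CdR acts on DNA methylation, which in mammals sits mainly on the dinucleotide CG, the 250 bases before the start of 4 chain genes are shown with each CG in capitals. They are from RefSeq on build GRCm38.p6, read 5′ to 3′ on the gene's strand. Col6a3 (chr1:90843972-90844221, reverse strand) and Col27a1 (chr4:63215162-63215411, forward strand, inside the GENCODE gene but in none of its exons) were higher with 5-Aza-CdR in total RNA. Col8a1 (chr16:57754738-57754987, reverse strand) was lower, and Col3a1 (chr1:45311288-45311537, forward strand) did not reach a 2-fold difference there.
Col6a3: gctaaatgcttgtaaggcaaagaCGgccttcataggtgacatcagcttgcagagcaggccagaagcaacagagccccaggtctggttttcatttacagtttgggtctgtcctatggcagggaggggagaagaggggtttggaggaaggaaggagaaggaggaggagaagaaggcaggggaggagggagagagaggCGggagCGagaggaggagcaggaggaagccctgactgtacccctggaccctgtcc
Col27a1: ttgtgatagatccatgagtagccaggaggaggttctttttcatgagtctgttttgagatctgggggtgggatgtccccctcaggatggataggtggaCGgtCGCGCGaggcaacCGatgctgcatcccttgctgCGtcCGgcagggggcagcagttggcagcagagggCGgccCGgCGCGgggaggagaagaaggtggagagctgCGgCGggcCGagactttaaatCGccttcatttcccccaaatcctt
Col8a1: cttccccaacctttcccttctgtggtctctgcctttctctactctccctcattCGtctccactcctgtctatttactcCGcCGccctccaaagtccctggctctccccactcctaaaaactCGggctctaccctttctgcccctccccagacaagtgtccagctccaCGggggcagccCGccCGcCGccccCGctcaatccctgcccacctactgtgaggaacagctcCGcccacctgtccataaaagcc
Col3a1: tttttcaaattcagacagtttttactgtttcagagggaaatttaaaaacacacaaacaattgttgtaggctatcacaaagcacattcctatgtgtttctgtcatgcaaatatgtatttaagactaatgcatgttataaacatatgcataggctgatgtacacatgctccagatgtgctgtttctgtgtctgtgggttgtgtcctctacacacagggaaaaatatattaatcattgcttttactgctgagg
The motif CG reads the same on both strands, so each site is counted once. Col6a3 has 3, Col27a1 has 15, Col8a1 has 10 and Col3a1 has 0. Over 32851 RefSeq promoters the median is 6 in 250 bases, and 92.1% hold at least 1. A promoter was matched for 32 of the 44 members, with a median of 10. The 11 matched members that were at least 2-fold higher with 5-Aza-CdR in total RNA held 1 to 31, with a median of 8, and the 6 other matched members tested there held 0 to 28, with a median of 10. Methylation of these bases was not measured.

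Members differed widely in level. Per kilobase of exon, Col3a1, the chain of type III fibrils, led in total RNA with DMSO at 124 CPM per kb, followed by Col8a1 at 44.8 and Col18a1 at 42.5. Col18a1, a basement membrane multiplexin whose end fragment is endostatin, led in 9 of the 12 libraries. The exceptions were total RNA with DMSO, total RNA with ADAR1i-124, where the type V chain Col5a2 led at 44.1, and J2 with DMSO, where Col3a1 (117) and Col18a1 (116) lay side by side. All members together took 0.309% of the counts in total RNA with DMSO, 0.251% with ADAR1i-124 and 0.506% with 5-Aza-CdR. Their share was 0.434% in J2 and 0.563% in Z22 with DMSO, and between 0.137% and 0.247% in the 6 precipitated libraries of treated cells. IgG had the lowest share, 0.129%. The precipitated libraries of DMSO cells thus stood above those of treated cells, while in total RNA the DMSO library stood between the others.

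**Figure D1:**
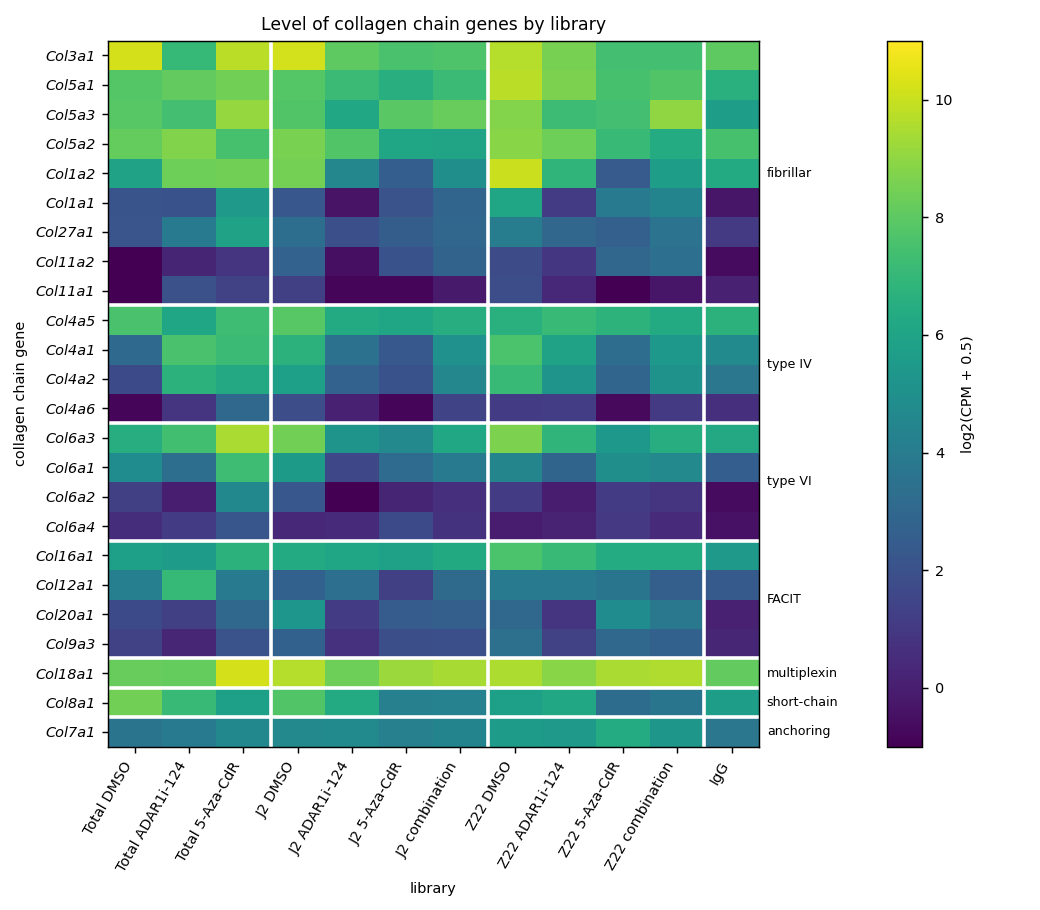
Level of the 24 collagen chain genes whose mean reached 1 CPM, as log2(CPM + 0.5) in colour, by gene (vertical axis, grouped by class) and library (horizontal axis, 1 library per column). Col4a1 and Col4a2 are dark in total RNA with DMSO (8.05 and 2.703 CPM) and bright in J2 and Z22 with DMSO, whereas Col18a1 is bright in every column.

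Differences between libraries are log2 changes of CPM + 0.5, treated minus control, from which the median change was subtracted. A gene was tested when its mean in the 2 libraries reached 1 CPM, and the median is over those genes. The pseudocount of 0.5 CPM understates the change of low genes. The amount subtracted was at most 0.11 in either direction for total RNA and J2, but 0.81, 1.06 and 0.82 for Z22 with ADAR1i-124, 5-Aza-CdR and the combination against DMSO. A member counts as higher or lower when its change is past 2-fold. In brackets stands the 95% exact binomial interval of a gene's count ratio, which has no pseudocount and covers counting error only: no molecular identifier marks the reads, so PCR copies count as well. It therefore need not be centred on the change of a gene with few counts. In such bulk libraries, fewer cells that express a gene and less RNA per cell cannot be told apart.

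With ADAR1i-124, chain genes in total RNA moved both ways. Of 22 members tested, 6 were at least 2-fold higher, beside 8.93% of all 13693 genes tested, and 5 were lower, beside 7.26%. The member median was 0.21, against 0.00 for all genes. The higher members were the type IV pair Col4a1 and Col4a2, the type I chain Col1a2, Col11a1 and Col27a1 of the fibrillar class, and the FACIT chain Col12a1. The lower ones were Col3a1, Col4a5, Col6a1, Col6a2 and Col8a1. Without centring Col9a3 was lower as well, so that 6 were higher (all genes 7.71%) and 6 lower (8.70%). The same treatment gave one direction in precipitated RNA: in J2, 0 of 22 members were higher (all genes 7.37%) and 17 were lower (10.8%), with a median of −1.90. In Z22, 0 of 23 were higher (17.6%) and 19 lower (17.5%), with a median of −1.92. These medians depend on the processing: with every gene of at least 1 count admitted they were −0.75 in J2 and −0.93 in Z22, and without centring the Z22 median was −1.11, with 0 members higher and 14 lower. Of all genes 42.9% were higher and 5.13% lower in Z22 without centring.

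With 5-Aza-CdR, chain genes in total RNA were mostly higher. Of 23 members tested, 14 were at least 2-fold higher, beside 15.7% of all genes, and 1, Col8a1, was lower, beside 9.91%. Their median was 1.58. Without centring Col7a1 was higher as well, so that 15 were higher (all genes 17.0%) and 1 lower (8.96%). In J2, 2 of 24, Col6a4 and Col28a1, were higher (7.81%) and 14 lower (6.6%), with a median of −1.65. In Z22, 0 of 23 were higher (18.4%) and 17 lower (19.3%), with a median of −2.42. With the combination against DMSO, 12 of 24 members were lower in J2 (all genes 4.92%) and 17 of 23 in Z22 (17.6%), with member medians of −1.12 and −2.04. None was higher in either, beside 6.97% of all genes in J2 and 18.1% in Z22. With every gene of at least 1 count admitted, the 5-Aza-CdR medians were 0.94 in total RNA, −0.50 in J2 and −0.56 in Z22, and those of the combination against DMSO −0.17 and −0.76. Without centring the Z22 medians were −1.36 with 5-Aza-CdR (2 members higher and 13 lower) and −1.22 with the combination (1 and 12). Of all genes 52.1% were higher and 4.10% lower there with 5-Aza-CdR, and 43.4% and 5.03% with the combination. A member enters a comparison when its mean over the 2 libraries reaches 1 CPM, so some entered through their DMSO level alone: 30 of the 44 were tested in at least 1 of the 10 comparisons, 19 in all of them, and 14 in none.

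**Figure D2:**
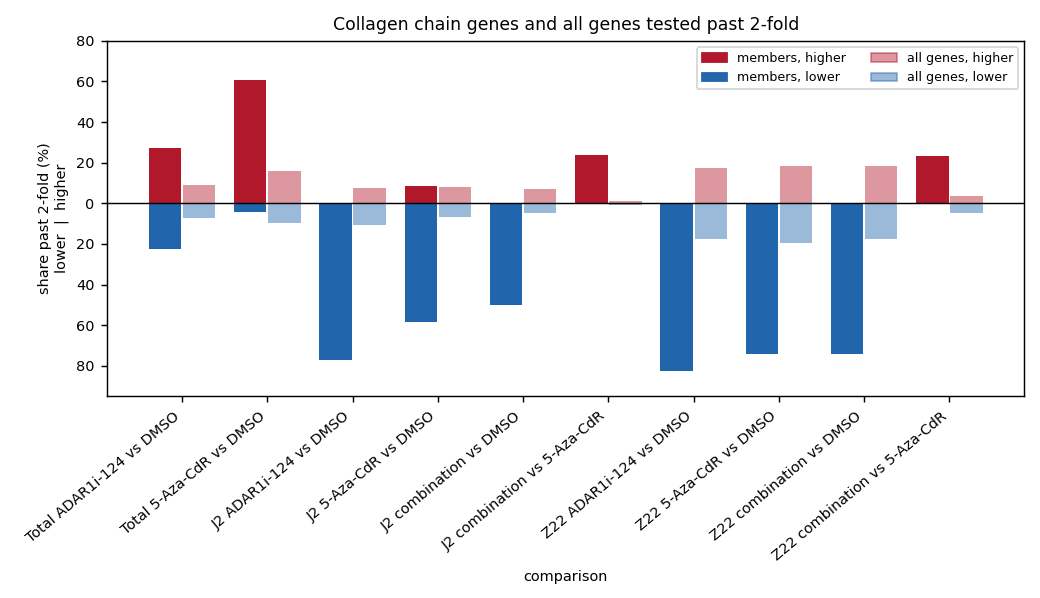
Share of collagen chain genes (dark bars) and of all genes tested (light bars) that were past 2-fold, in percent, higher above and lower below the zero line, for each of the 10 comparisons of 2 libraries. The dark bars reach mostly up with 5-Aza-CdR in total RNA (14 of 23 members) and mostly or only down in every J2 and Z22 library against DMSO. J2 with 5-Aza-CdR also has 2 of 24 members above the line. For the combination against 5-Aza-CdR they point up.

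The type IV chains Col4a1 and Col4a2 assemble together into the common trimer of basement membranes, and their genes lie head to head on chromosome 8 and share a promoter region. The total RNA levels of Col4a1 were 8.05 CPM for DMSO, 186 for ADAR1i-124 and 142 for 5-Aza-CdR. J2 gave 106 CPM for DMSO, 10.5 for ADAR1i-124, 4.51 for 5-Aza-CdR and 33.1 for both. Z22 gave 192, 60.2, 9.30 and 42.1 CPM, and IgG 26.2. The DMSO library was thus the lowest of total RNA and the highest of J2 and of Z22. For Col4a2, total RNA gave 2.703 CPM (DMSO), 106 (ADAR1i-124) and 75.9 (5-Aza-CdR). Its level in J2 was 54.0 CPM for DMSO, 6.25 for ADAR1i-124, 3.53 for 5-Aza-CdR and 22.9 for the combination. The corresponding Z22 values were 137, 37.0, 6.98 and 34.7 CPM, beside 12.99 in IgG. Col4a2 had the same order of libraries in each of total RNA, J2 and Z22 as Col4a1. With ADAR1i-124 the change of Col4a1 was 4.54 (4.37 to 4.88) in total RNA, −3.27 (−3.59 to −3.09) in J2 and −2.47 (−2.60 to −2.36) in Z22. With 5-Aza-CdR it was 4.0 (3.84 to 4.34), −4.46 (−5.01 to −4.24) and −5.35 (−5.78 to −5.09). The changes of Col4a2 ran beside these: 5.14 (4.96 to 5.83) in total RNA with ADAR1i-124 and 4.52 (4.33 to 5.205) with 5-Aza-CdR, against −3.01 and −3.82 in J2 and −2.68 and −5.26 in Z22. Over the 12 libraries the log2 levels of the pair had a Pearson correlation of 0.98 (n = 12 libraries, which share depth and antibody), and Col4a1 stood at 1.08 to 2.64 times Col4a2 per kilobase. Their exons overlap by 22 bases on opposite strands, 0.295% of the exon length of Col4a1 and 0.332% of that of Col4a2, and the strand setting of the counting is not given.

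**Figure D3:**
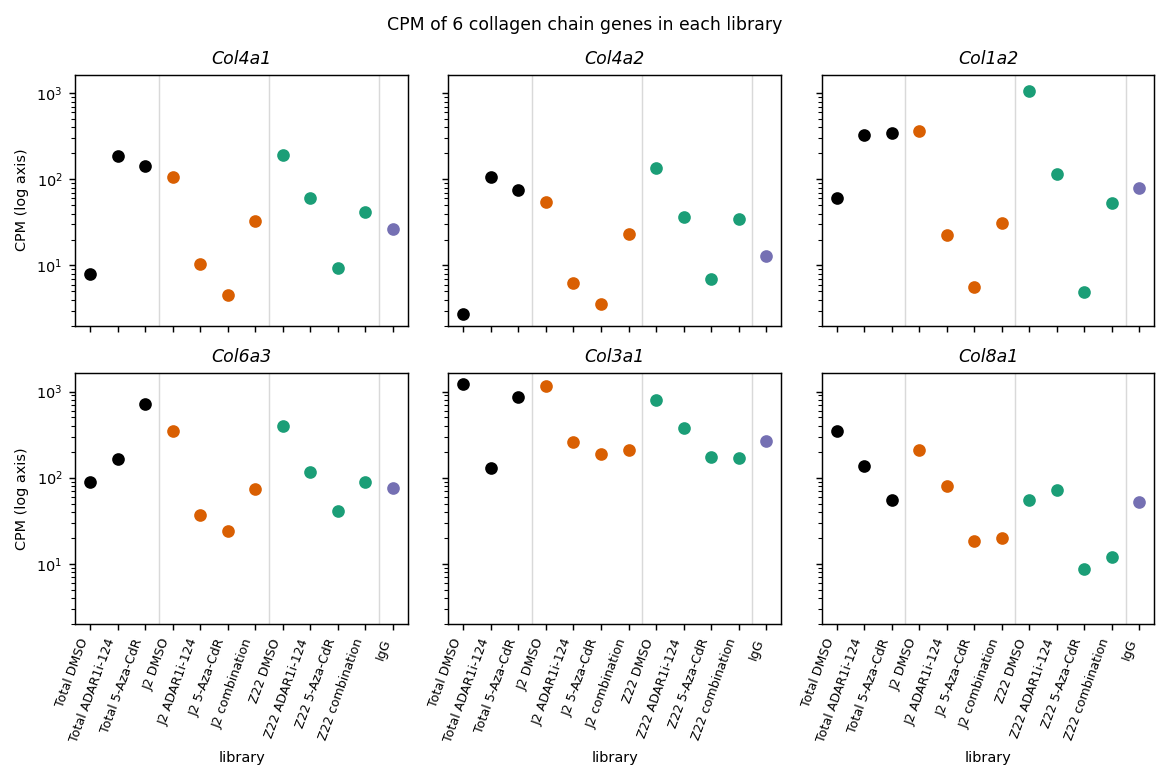
CPM on a log axis of 6 collagen chain genes in each of the 12 libraries (1 point per library; black total RNA, orange J2, green Z22, violet IgG). For Col4a1, Col4a2 and Col1a2 the DMSO point is the lowest of total RNA and the highest of J2 and Z22, whereas Col8a1 with 5-Aza-CdR is below DMSO in all of them, at 54.8, 18.5 and 8.81 CPM.

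Of the other type IV chains, Col4a6 ran beside this pair in total RNA and J2, at far lower counts, and Col4a5 did not. Col4a5, a chain of specialised basement membranes encoded on the X chromosome, was among the more even members. In total RNA, Col4a5 was at 186 CPM with DMSO, 67.3 with ADAR1i-124 and 154 with 5-Aza-CdR. RNA bound by J2 held 235 CPM for DMSO, 80.1 for ADAR1i-124, 68.9 for 5-Aza-CdR and 88.8 for the combination. RNA bound by Z22 held 96.6, 134, 106 and 80.4 CPM, and that bound by IgG 103. Its change with ADAR1i-124 was −1.37 (−1.47 to −1.28) in total RNA, −1.55 (−1.66 to −1.46) in J2 and −0.34 (−0.46 to −0.22) in Z22, and with 5-Aza-CdR −0.33, −1.83 and −0.92. Without centring both Z22 changes turned direction, to 0.47 with ADAR1i-124 and 0.14 with 5-Aza-CdR. Its neighbour Col4a6 had 1, 23 and 259 counts in total RNA with DMSO, ADAR1i-124 and 5-Aza-CdR, the last a change of 3.78 (4.44 to 12.24). In J2 and Z22 with 5-Aza-CdR it had 1 count each, against 37 and 14 with DMSO. Its J2 changes were −1.75 with ADAR1i-124, from 37 to 8 counts, and −2.68 with 5-Aza-CdR. In Z22 with ADAR1i-124 it had 26 counts, and the change there was −0.70, or 0.11 without centring. Col4a3 never exceeded 2 counts, and Col4a4, its partner in kidney basement membrane, had 9 to 16 counts in each of the 5 libraries of cells given 5-Aza-CdR and at most 3 in the others.

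Type I collagen is built from Col1a1 and Col1a2 chains. The total RNA levels of Col1a2 were 60.2 CPM for DMSO, 329 for ADAR1i-124 and 344 for 5-Aza-CdR. The J2 libraries held 363 CPM (DMSO), 22.8 (ADAR1i-124), 5.56 (5-Aza-CdR) and 31.3 (combination). Its Z22 levels were 1053, 114, 4.90 and 52.7 CPM in that order, and IgG had 79.4. Every treated library was above DMSO in total RNA and below DMSO in J2 and Z22. With ADAR1i-124 the change was 2.53 (2.45 to 2.64) in total RNA, −3.97 (−4.16 to −3.83) in J2 and −4.01 (−4.10 to −3.94) in Z22. With 5-Aza-CdR it was 2.45 (2.36 to 2.55), −5.97 (−6.44 to −5.76) and −8.67 (−9.29 to −8.36), and the Z22 value was the lowest of all 13716 genes tested in that comparison. Col1a1 was low in most libraries. For Col1a1, total RNA gave 3.88 CPM (DMSO), 3.58 (ADAR1i-124) and 44.0 (5-Aza-CdR). J2 gave 4.27 CPM for DMSO, 0.278 for ADAR1i-124, 3.76 for 5-Aza-CdR and 6.97 for both. Z22 gave 66.8, 1.64, 14.9 and 20.9 CPM, and IgG 0.326. Z22 with DMSO and total RNA with 5-Aza-CdR stood out as the highest. Its change with 5-Aza-CdR was 3.28 (3.09 to 3.82) in total RNA, −0.22 (−0.83 to 0.35) in J2 and −3.18 (−3.52 to −2.94) in Z22. With ADAR1i-124 the interval held 0 in total RNA (−0.01, interval −0.55 to 0.49), and it was −2.62 in J2, from 52 to 4 counts, and −5.79 in Z22. Per kilobase Col1a2 stood above Col1a1 in 10 of the 12 libraries, 8.19-fold in total RNA with DMSO. In J2 and Z22 with 5-Aza-CdR it stood below, at 0.782 and 0.173 times Col1a1.

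Col3a1, the fibrillar chain with the highest mean CPM over the 12 libraries, had the lowest change of any member with ADAR1i-124 in total RNA. In total RNA, Col3a1 was at 1213 CPM with DMSO, 130.5 with ADAR1i-124 and 859 with 5-Aza-CdR. Its level in J2 was 1149.7 CPM for DMSO, 263 for ADAR1i-124, 187 for 5-Aza-CdR and 207 for the combination. The corresponding Z22 values were 804, 376, 172 and 168 CPM, beside 264 in IgG. Every treated library was below DMSO of the same RNA type. The change with ADAR1i-124 was −3.12 (−3.19 to −3.06) in total RNA, −2.13 (−2.18 to −2.08) in J2 and −1.90 (−1.96 to −1.85) in Z22. With 5-Aza-CdR it was −0.56 (−0.59 to −0.53), within the 2-fold line, in total RNA, and −2.67 (−2.74 to −2.61) and −3.28 (−3.37 to −3.20) in the precipitated libraries. The gene Gm47302 has exons that overlap Col3a1 on the same strand, and reads there could be assigned to either.

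The type V chains regulate fibril width. In total RNA with ADAR1i-124 they stayed within 2-fold, at 0.37 for Col5a1, 0.66 for Col5a2 and −0.35 for Col5a3. With 5-Aza-CdR Col5a3 was higher, at a change of 1.15 (1.10 to 1.20), while Col5a1 (0.53) and Col5a2 (−0.71) were within the line. The 3 chains differed in J2. The total RNA levels of Col5a1 were 228 CPM for DMSO, 276 for ADAR1i-124 and 345 for 5-Aza-CdR. RNA bound by J2 held 229 CPM for DMSO, 143 for ADAR1i-124, 95.7 for 5-Aza-CdR and 143 for the combination. RNA bound by Z22 held 860.4, 396, 182 and 214 CPM, and that bound by IgG 96.4. Col5a2 with 5-Aza-CdR lay further below DMSO in J2. For Col5a2, total RNA gave 284 CPM (DMSO), 423 (ADAR1i-124) and 181 (5-Aza-CdR). The J2 libraries held 389.8 CPM (DMSO), 211 (ADAR1i-124), 65.7 (5-Aza-CdR) and 64.8 (combination). Its Z22 levels were 471, 322, 139.7 and 81.8 CPM in that order, and IgG had 179. Col5a3 differed from both in J2, where its 5-Aza-CdR level was not below DMSO. In total RNA, Col5a3 was at 234 CPM with DMSO, 172 with ADAR1i-124 and 541 with 5-Aza-CdR. J2 gave 212 CPM for DMSO, 71.5 for ADAR1i-124, 245 for 5-Aza-CdR and 293 for both. Z22 gave 441, 148, 171 and 509 CPM, and IgG 50.2. With 5-Aza-CdR in J2 the changes were thus −1.32 for Col5a1, −2.62 for Col5a2 and 0.15 (0.08 to 0.23) for Col5a3. In Z22 with 5-Aza-CdR all 3 were lower, at −3.30, −2.81 and −2.42.

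Of the other fibrillar chains, Col27a1, which is expressed in growing cartilage, was above DMSO with both compounds in total RNA. The total RNA levels of Col27a1 were 3.94 CPM for DMSO, 14.8 for ADAR1i-124 and 59.1 for 5-Aza-CdR. Its level in J2 was 9.52 CPM for DMSO, 3.26 for ADAR1i-124, 5.34 for 5-Aza-CdR and 7.22 for the combination. The corresponding Z22 values were 16.2, 7.23, 5.88 and 11.5 CPM, beside 1.57 in IgG. Its total RNA changes of 1.88 (1.61 to 2.41) and 3.69 (3.50 to 4.22) stood beside −1.41 and −0.84 in J2 and −1.92 and −2.45 in Z22. Col11a1, a cartilage fibril chain, had 0 counts in total RNA with DMSO and 60 with ADAR1i-124, which is at least 19.3-fold higher when 3 counts are taken for the DMSO library. In 5-Aza-CdR total RNA it had 69 counts. Its partner Col11a2 reached at most 1.27 CPM in total RNA, but had 6.40, 0.208, 3.53 and 6.54 CPM in the J2 libraries in the order above, and 2.98, 1.36, 7.22 and 10.1 in Z22. Col2a1, the main cartilage fibril chain, had at most 10 counts in a library and Col24a1 at most 24.

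Type VI collagen, a beaded microfibril around cells, combines Col6a1 and Col6a2 with a long chain such as Col6a3. All 4 members of this class tested with 5-Aza-CdR in total RNA were higher. For Col6a3, total RNA gave 89.8 CPM (DMSO), 164 (ADAR1i-124) and 714 (5-Aza-CdR). RNA bound by J2 held 348 CPM for DMSO, 37.0 for ADAR1i-124, 24.4 for 5-Aza-CdR and 73.5 for the combination. RNA bound by Z22 held 399.7, 116, 41.5 and 89.8 CPM, and that bound by IgG 76.1. With 5-Aza-CdR Col6a3 was the highest of total RNA and the lowest of J2 and Z22. Its changes were 2.92 (2.86 to 3.01) in total RNA, −3.87 (−4.06 to −3.73) in J2 and −4.31 (−4.49 to −4.17) in Z22, and with ADAR1i-124 0.96 (0.87 to 1.05), just under the line, −3.22 (−3.37 to −3.10) and −2.60 (−2.68 to −2.52). In total RNA, Col6a1 was at 28.3 CPM with DMSO, 9.59 with ADAR1i-124 and 154 with 5-Aza-CdR. The J2 libraries held 46.5 CPM (DMSO), 2.501 (ADAR1i-124), 8.65 (5-Aza-CdR) and 14.6 (combination). Its Z22 levels were 21.2, 6.75, 30.7 and 24.6 CPM in that order, and IgG had 5.42. Col6a1 was thus lower with ADAR1i-124 in all RNA types, at −1.42 (−1.73 to −1.21), −3.97 (−4.75 to −3.73) and −2.39 (−2.83 to −2.10), and higher with 5-Aza-CdR in total RNA alone. These 5-Aza-CdR changes were 2.37 (2.25 to 2.52) in total RNA, −2.42 (−2.79 to −2.20) in J2 and −0.53 (−0.80 to −0.24) in Z22, where the direction turned to 0.53 without centring. Col6a2 had 33, 9 and 820 counts in total RNA in the same order, changes of −1.18 (−3.08 to −0.74) and 3.25 (3.05 to 4.10). Col6a4 was near 1 CPM, at 17, 28 and 144 counts, and was higher with 5-Aza-CdR in total RNA (1.58, interval 1.27 to 2.82) and in J2 (1.22, interval 0.62 to 2.84), where it had 10 and 36 counts. Col6a5 had at most 4 counts and Col6a6 at most 1.

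The FACIT chains decorate the surface of fibrils. Col12a1, which binds type I fibrils, stood apart in 1 library. The total RNA levels of Col12a1 were 17.7 CPM for DMSO, 129.5 for ADAR1i-124 and 14.6 for 5-Aza-CdR. J2 gave 6.07 CPM for DMSO, 10.003 for ADAR1i-124, 1.96 for 5-Aza-CdR and 8.41 for both. Z22 gave 15.2, 14.6, 11.998 and 5.69 CPM, and IgG 4.70. The ADAR1i-124 library stood out in total RNA, with a change of 2.92 (2.79 to 3.14), beside 0.68 (0.30 to 1.14) in J2 and −0.87 (−1.19 to −0.55) in Z22. Col16a1 was more even. For Col16a1, total RNA gave 54.2 CPM (DMSO), 48.8 (ADAR1i-124) and 105 (5-Aza-CdR). Its level in J2 was 79.7 CPM for DMSO, 68.6 for ADAR1i-124, 58.5 for 5-Aza-CdR and 76.9 for the combination. The corresponding Z22 values were 196, 136, 81.8 and 83.5 CPM, beside 42.7 in IgG. It was within the line in total RNA (−0.06 and 0.88) and lower in Z22 (−1.33 with ADAR1i-124 and −2.31 with 5-Aza-CdR). Col20a1 was highest in J2 with DMSO. In total RNA, Col20a1 was at 2.76 CPM with DMSO, 1.93 with ADAR1i-124 and 7.64 with 5-Aza-CdR. RNA bound by J2 held 38.8 CPM for DMSO, 1.60 for ADAR1i-124, 5.11 for 5-Aza-CdR and 5.69 for the combination. RNA bound by Z22 held 7.56, 1.23, 27.8 and 13.7 CPM, and that bound by IgG 0.587. Its change with 5-Aza-CdR was 1.26 (0.95 to 1.89) in total RNA and −2.87 (−3.37 to −2.61) in J2. In Z22 it was 0.75 (0.42 to 1.24), and 1.81 without centring, past the line in the direction of total RNA. Col9a3, of cartilage type IX collagen, lay between 0.718 and 10.2 CPM and was past the line in neither centred total RNA comparison. Without centring it was at −1.05 with ADAR1i-124 in total RNA, past the line.

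Of the remaining classes, the multiplexin Col18a1 had the most counts of any member. The total RNA levels of Col18a1 were 298 CPM for DMSO, 289.8 for ADAR1i-124 and 1184 for 5-Aza-CdR. The J2 libraries held 811 CPM (DMSO), 324 (ADAR1i-124), 588 (5-Aza-CdR) and 691 (combination). Its Z22 levels were 729.8, 474, 703 and 748 CPM in that order, and IgG had 278. It led in total RNA with 5-Aza-CdR and was above its IgG level in each J2 and Z22 library. Its change was 0.05 (−0.01 to 0.11) with ADAR1i-124 and 1.93 (1.89 to 1.97) with 5-Aza-CdR. In J2 and Z22 it was −1.32 and −1.43 with ADAR1i-124 and −0.52 and −1.12 with 5-Aza-CdR. The other multiplexin, Col15a1, had 1, 2 and 166 counts in total RNA and at most 5 in any precipitated library. Its ratio of 166 to 1 counts has a log2 interval of 3.79 to 11.60. Col8a1, a short chain of the vascular and corneal network collagen, was the 1 member lower with each compound in total RNA. For Col8a1, total RNA gave 351 CPM (DMSO), 136 (ADAR1i-124) and 54.8 (5-Aza-CdR). J2 gave 212 CPM for DMSO, 80.99 for ADAR1i-124, 18.5 for 5-Aza-CdR and 19.7 for both. Z22 gave 55.0, 72.2, 8.81 and 12.03 CPM, and IgG 51.7. With 5-Aza-CdR its change was −2.73 (−2.81 to −2.66) in total RNA, −3.54 (−3.77 to −3.39) in J2 and −3.64 (−4.08 to −3.34) in Z22, past 4-fold in each. With ADAR1i-124 it was −1.27 (−1.34 to −1.20), −1.38 (−1.49 to −1.29) and −0.42 (−0.57 to −0.26), and the Z22 value turned to 0.39 without centring. Col7a1, the anchoring fibril of the dermal junction, had its highest level in Z22 with 5-Aza-CdR. In total RNA, Col7a1 was at 11.6 CPM with DMSO, 15.4 with ADAR1i-124 and 24.0 with 5-Aza-CdR. Its level in J2 was 24.7 CPM for DMSO, 25.2 for ADAR1i-124, 18.4 for 5-Aza-CdR and 20.7 for the combination. The corresponding Z22 values were 48.8, 42.5, 83.7 and 40.5 CPM, beside 13.1 in IgG. It stayed within the line in total RNA (0.49 and 0.96, the latter 1.02 without centring and so past it). In J2 it stayed within the line (0.03 and −0.47), and in Z22 its changes were −1.01 and −0.29 with the shift of Z22 removed. Without that centring the Z22 changes with ADAR1i-124 were −0.20 for Col7a1, −0.52 for Col16a1, −0.55 for Col5a2 and −0.62 for Col18a1, none past the line, and with 5-Aza-CdR Col18a1 was at −0.05 and Col7a1 turned direction, to 0.77. In total RNA with ADAR1i-124 Col18a1 turned as well, from 0.05 to −0.04.

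The 14 members never tested were close to the detection floor, at no more than 1.10 CPM in any library. Col26a1 had no count in the 12 libraries, which allows at most 3 counts in each, and Col4a3, Col6a6, Col8a2, Col9a1, Col9a2 and Col10a1 never reached 3 counts. The transmembrane chains Col13a1, Col17a1, Col23a1 and Col25a1 summed to 0.176 CPM in total RNA with DMSO, 0.795 with ADAR1i-124 and 2.89 with 5-Aza-CdR. In the 4 precipitated libraries of cells given 5-Aza-CdR they summed to 1.71 to 1.96 CPM, and in J2 and Z22 with DMSO to 0.164 and 0.115. Col28a1, related to type VI collagen, had 15 to 29 counts in each of the 5 libraries of cells given 5-Aza-CdR and at most 3 elsewhere. In J2 it had 0 counts with DMSO and 29 with 5-Aza-CdR, at least 8.86-fold higher against 3 counts. Col14a1, Col19a1 and Col22a1 of the FACIT class never exceeded 14 counts.

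**Figure D4:**
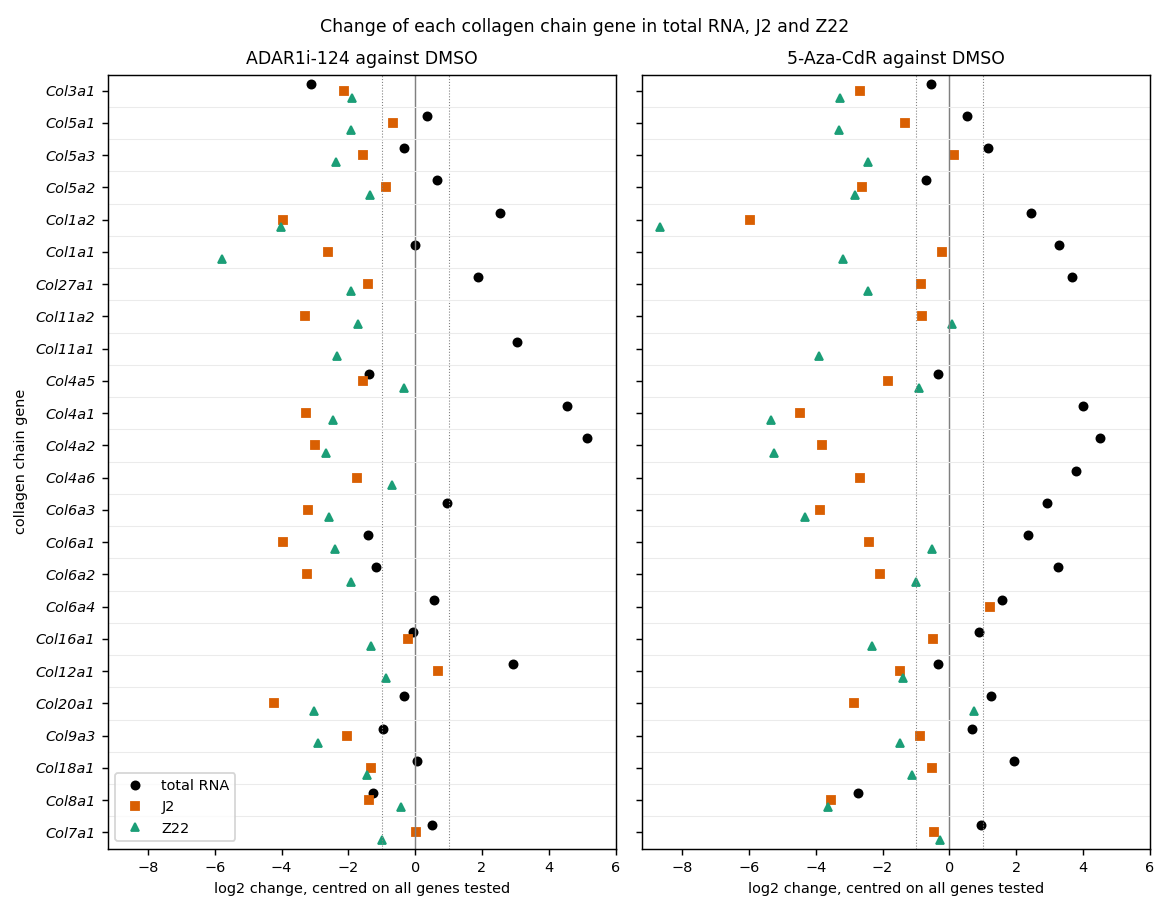
Centred log2 change (horizontal axis) of the 24 collagen chain genes whose mean reached 1 CPM (vertical axis) with ADAR1i-124 (left) and 5-Aza-CdR (right) against DMSO, where tested, in total RNA (black circles), J2 (orange squares) and Z22 (green triangles), with dotted lines at 2-fold. Black circles lie to the right for Col4a1, Col4a2 and Col1a2 in both panels while squares and triangles lie to the left, and for Col3a1 with ADAR1i-124 and Col8a1 with 5-Aza-CdR all symbols lie to the left.

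Whether a change in total RNA recurred in precipitated RNA was read for the 20 members tested in all 3 RNA types. With ADAR1i-124, 5 of them were at least 2-fold higher in total RNA, and 0 of these were higher in both J2 and Z22, beside 3.85% of the 986 genes that were higher in total RNA. Instead 4 of the 5 (Col1a2, Col4a1, Col4a2 and Col27a1) were at least 2-fold lower in both, beside 9.23% of those genes. The fifth was Col12a1. Of the 5 members lower in total RNA, 3 (Col3a1, Col6a1 and Col6a2) were lower in both, beside 22.8% of 843 genes, and Col4a5 and Col8a1 were lower in J2 and within the line in Z22, where their direction depends on the centring. In J2 alone all 5 were lower, beside 313 of the 843 genes. With 5-Aza-CdR, 11 of the 20 were higher in total RNA. None of the 11 was higher in both J2 and Z22, beside 17.5% of 1775 genes, and 4 (Col1a2, Col4a1, Col4a2 and Col6a3) were lower in both, beside 5.13%. In J2 alone 7 of the 11 were lower, beside 153 of the 1775 genes, and in Z22 alone 8, beside 413. Col8a1, the 1 member lower in total RNA, was lower in both, beside 7.77% of 1339 genes. Col6a2 rests on 33 and 9 counts in total RNA, and with a pseudocount of 2 CPM its change there was −0.57. The 3 comparisons of a treatment use different libraries, but those of ADAR1i-124 and 5-Aza-CdR share the DMSO library of each RNA type, so the counts of the 2 treatments are not independent. The opposite directions rest on the DMSO labels as given, and an exchange of DMSO and treated libraries was not tested. Over the genes tested in all 3 RNA types, the 843 lower with ADAR1i-124 in total RNA had 313 lower and 42 higher in J2, the 986 higher had 77 higher and 171 lower, and with 5-Aza-CdR the 1775 higher had 485 higher and 153 lower and the 1339 lower had 160 lower and 40 higher.

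Both kinds of precipitated RNA moved together. Across the 20 members, the changes in J2 and Z22 had a Spearman correlation of 0.73 with ADAR1i-124 and 0.50 with 5-Aza-CdR, whereas total RNA and J2 had 0.12 and −0.12, and total RNA and Z22 had −0.23 and −0.21. Over all genes tested in the 3 RNA types the J2 to Z22 value was 0.47 and 0.39, and the values against total RNA lay between −0.07 and 0.08. Members of a collagen trimer and libraries of 1 experiment are not independent points. Whether the J2, Z22 and total RNA libraries of a treatment came from 1 harvest is not given in the sources used here, so RNA type and harvest cannot be told apart.

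Levels relative to IgG and to total RNA also differed by treatment. With DMSO, 20 of 23 members tested were at least 2-fold higher in J2 than in IgG, beside 13.5% of all genes, and 20 of 22 in Z22, beside 24.9%. The member medians were 2.03 and 3.11. With ADAR1i-124, 1 of 17 was higher than IgG in J2 (5.72% of all genes) and 9 of 18 in Z22 (7.87%), with medians of 0.24 and 0.98. In J2 3 of the 17 were lower than IgG, beside 4.41%. With 5-Aza-CdR members lay on both sides of IgG, with 9 of 22 higher and 7 lower in J2 (12.1% and 6.24% of all genes) and 11 of 21 higher and 5 lower in Z22 (17.2% and 8.32%), at medians of 0.41 and 1.09. With the combination 8 of 21 were higher and 3 lower in J2 (15.6% and 10.4%), and 11 of 21 higher and 2 lower in Z22 (16.8% and 10.9%), at medians of 0.67 and 1.13. A member was tested here by the mean of the precipitated and the IgG library, so the members tested differed between treatments, and Col1a1, Col6a2, Col9a3, Col11a1, Col11a2 and Col20a1 entered in J2 with DMSO through their J2 level. Over the 17 members with at least 1 CPM in IgG, a set chosen after seeing the data, 14 were higher than IgG in J2 and 16 in Z22 with DMSO, beside 10.6% and 23.5% of all genes at that level. In the same set 1 and 8 were higher with ADAR1i-124, beside 3.85% and 6.52%. With 5-Aza-CdR, 3 of the 17 were higher and 8 lower in J2 (8.02% and 5.98% of all genes), at a median of −0.56. In Z22 6 were higher and 4 lower (12.95% and 7.2%), at a median of −0.02. The sign of the 5-Aza-CdR medians against IgG thus depends on the members admitted. Over the 24 members whose mean over the 12 libraries reached 1 CPM, these medians were 0.15 and 0.92. Over the 24 members whose mean reached 1 CPM, the level profile of IgG had Spearman correlations of 0.93 with J2 of DMSO, 0.95 of ADAR1i-124, 0.84 of 5-Aza-CdR and 0.90 of the combination. With Z22 these were 0.88, 0.96, 0.72 and 0.85, and with total RNA 0.90, 0.88 and 0.87 for DMSO, ADAR1i-124 and 5-Aza-CdR. Against total RNA of the same treatment, 13 of 22 members were higher in J2 with DMSO (10.8% of all genes) and 16 of 22 in Z22 (24.8%). With ADAR1i-124, 1 of 20 members was higher and 9 were lower in J2 than in total RNA (8.59% and 8.1% of all genes), at a median of −0.83. In Z22 6 of 23 were higher and 5 lower (8.11% and 5.54%), at a median of −0.18. With 5-Aza-CdR, 16 of 27 were lower in J2 than in total RNA (9.56%) and 14 of 26 in Z22 (10.2%). In the same libraries 2 of 27 were higher in J2 (9.95%) and 5 of 26 in Z22 (9.94%). For Col4a2 the difference from total RNA was 4.45 in J2 and 6.60 in Z22 with DMSO, and −3.88 and −3.15 with 5-Aza-CdR. The shift removed was −1.18 for Z22 and −0.36 for J2 with DMSO against total RNA, and −0.83 for Z22 with DMSO against IgG. Without centring Col4a2 differed from total RNA by 5.42 in Z22 and 4.09 in J2 with DMSO. There 14 and 11 of the 22 members were higher than total RNA, beside 6.61% and 5.56% of all genes. Also without centring, 19 of 22 were higher than IgG in Z22 with DMSO, beside 11.3%, at a median of 2.28. The treatment of the cells behind IgG is not known, and its part in these differences was not tested.

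The combination was compared with 5-Aza-CdR in precipitated RNA alone. By the times given, it also had 12 h more of culture than 5-Aza-CdR alone, and the part of that time was not tested. Against 5-Aza-CdR, the combination had 6 of 25 members higher in J2, beside 1.26% of all genes, and 0 lower, beside 0.747%. In Z22, 6 of 26 were higher, beside 3.54%, and 0 lower, beside 4.7%. The member medians were 0.32 and 0.19. Without centring the Z22 median was 0.01, with 13 members above 0 and 13 below. Col1a2, Col4a1, Col4a2 and Col6a3 were higher in both, 4 of the 24 members tested in both, beside 0.439% of 13675 genes. Their changes were 2.34 (2.08 to 2.82) in J2 and 3.48 (3.14 to 4.11) in Z22 for Col1a2, 2.695 (2.43 to 3.24) and 2.30 (2.001 to 2.73) for Col4a1, 2.49 (2.20 to 3.13) and 2.41 (2.08 to 2.93) for Col4a2, and 1.53 (1.36 to 1.73) and 1.29 (1.11 to 1.48) for Col6a3. All 4 stayed below their DMSO level in the combination, with changes against DMSO of −1.77 in J2 and −2.99 in Z22 for Col4a1 and −3.62 and −5.13 for Col1a2, the last the lowest of 13276 genes tested. The other members past the line in J2 were Col12a1 (1.81, interval 1.42 to 2.74) and Col4a6, from 1 to 27 counts. Those in Z22 were Col5a3 (1.75, interval 1.67 to 1.84) and Col27a1 (1.09, interval 0.64 to 1.67). Without centring Col27a1 was at 0.91, within the line, and Col12a1 (−1.01) and Col7a1 (−1.04) were lower, so that 5 members were higher and 2 lower in Z22. Of all genes 2.28% were then higher and 7.11% lower. Col12a1 then ran opposite to its J2 change. Col3a1 (0.09 and 0.15, the latter −0.03 without centring) and Col8a1 (0.04 and 0.61) did not move past the line. Both comparisons use the 5-Aza-CdR library of their antibody, which is also the lowest of its 4 for these 4 genes.

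**Figure D5:**
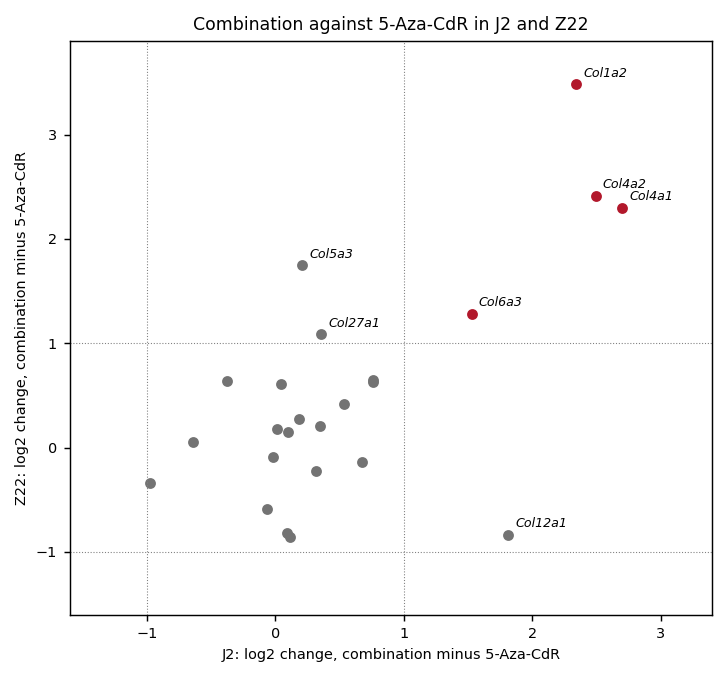
Centred log2 change of 24 collagen chain genes for the combination against 5-Aza-CdR, in J2 (horizontal axis) and Z22 (vertical axis), 1 point per gene, dotted lines at 2-fold. Col1a2, Col4a1, Col4a2 and Col6a3 (red) are past the line in both, between 1.29 and 3.48, and most other genes lie near 0.

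The level pattern of Col4a1 was shared by some members and not by others. Over the 12 libraries the Pearson correlation of log2 levels with Col4a1 was 0.91 for Col1a2, 0.88 for Col6a3, 0.71 for Col5a1 and 0.70 for Col27a1, and 0.26 for Col3a1 and 0.17 for Col4a5. Col3a1 was closest to Col4a5, at 0.85. These values describe 12 libraries of unequal depth and RNA type, among the 18 members whose mean reached 5 CPM.

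Genes that make, mature, degrade and bind collagen were read as lists beside the chains. Their counts stand beside these shares of all genes tested, higher and then lower: in total RNA 8.93% and 7.26% with ADAR1i-124 and 15.7% and 9.91% with 5-Aza-CdR, in J2 7.37% and 10.8%, and 7.81% and 6.6%, and in Z22 17.6% and 17.5%, and 18.4% and 19.3%. Those of Z22 rest on the centring: without it, a reading chosen after seeing the data, 42.9% of all genes were higher and 5.13% lower with ADAR1i-124, and 52.1% and 4.10% with 5-Aza-CdR. Of 18 enzymes and chaperones of collagen biosynthesis tested, 1 was higher (P4ha3, 1.22, at 3.69 CPM) and 1 lower (P3h2, a proline hydroxylase, −1.66) with ADAR1i-124 in total RNA, and 3 were higher and 0 lower with 5-Aza-CdR. These 3 were the proline hydroxylases P4ha2 (1.77) and P3h3 (1.10) and the lysine hydroxylase Plod1 (1.35). In J2 these counts were 1 and 0 with ADAR1i-124 and 0 and 0 with 5-Aza-CdR. In Z22 they were 1 and 4 with ADAR1i-124, and 1 and 8 of 18 with 5-Aza-CdR. Without centring the Z22 counts were 5 and 0, and 7 and 0, and 5 rather than 3 of the list were higher with 5-Aza-CdR in total RNA. P4ha3, below the level set for naming genes of a list, was named after its values were seen, as the 1 gene of that count.

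Among 13 procollagen processing and cross-linking genes, 4 of 9 tested were higher (all genes 8.93%) and 0 lower with ADAR1i-124 in total RNA, and 7 of 10 higher (all genes 15.7%) and 0 lower with 5-Aza-CdR. Like Col4a1, the cross-linking enzyme Loxl1 was lowest with DMSO in total RNA and highest with DMSO in J2 and Z22. It was at 6.52, 34.1 and 40.6 CPM in total RNA, 16.7, 2.78, 1.65 and 7.65 in J2 and 42.6, 9.55, 1.22 and 6.997 in Z22. In total RNA the order of the compounds was the reverse of that for Col4a1. The list did not share this pattern: its highest changes with ADAR1i-124 and 5-Aza-CdR were 2.33 and 1.76 in J2 and 2.19 and 2.25 in Z22. In J2, 2 of 9 were higher and 2 lower with ADAR1i-124, and 1 of 8 higher and 3 lower with 5-Aza-CdR. In Z22, 1 of 8 was higher and 5 were lower with ADAR1i-124, and 1 of 8 higher and 6 lower with 5-Aza-CdR. Without centring 2 and 3 of the 8 stayed lower in Z22, Loxl1 among them at −2.10 and −4.64. Of 16 other matrix glycoproteins, 6 of 13 tested were higher and 1 lower with ADAR1i-124 in total RNA, and 8 of 14 higher and 0 lower with 5-Aza-CdR. In J2, 0 were higher with either compound, with 4 of 13 lower and 7 of 14 lower. In Z22, 0 were higher with either, with 7 and 8 of 13 lower. Without centring 3 were lower and 1 higher with ADAR1i-124 in Z22, and 3 and 1 with 5-Aza-CdR. The microfibril protein Fbn1 was at 18.6, 77.0 and 55.2 CPM in total RNA, with changes of 2.11 and 1.49, against −1.90 and −2.39 in J2 and −2.67 and −3.88 in Z22. Tenascin C (Tnc) was at 15.2, 81.6 and 152 CPM in total RNA, with changes of 2.48 and 3.22. In J2 its changes were within the line (−0.59 and −0.76), and in Z22 they were −1.15 and −1.14, or −0.34 and −0.08 without centring, within the line. Thbs2, a thrombospondin, had 4, 1 and 1966 counts in total RNA, 56.9 CPM with 5-Aza-CdR (6.23), and was not lower with 5-Aza-CdR in J2 (0.50) or Z22 (0.48, or 1.54 without centring). Fbn1 was thus past the line in opposite directions in total RNA and both precipitated RNAs, also without centring (−1.86 and −2.82 in Z22), whereas Tnc and Thbs2 were not. Lama4, a laminin chain of basement membranes, was lower with ADAR1i-124 (−2.501) and higher with 5-Aza-CdR (2.95) in total RNA, and lower with both in J2 (−3.57 and −1.59).

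Of 10 collagen degrading enzymes and inhibitors, 2 of 9 tested were higher and 2 lower with ADAR1i-124 in total RNA, and 6 higher and 0 lower with 5-Aza-CdR. The gelatinase Mmp9 went from 5.82 to 93.8 CPM with 5-Aza-CdR in total RNA (3.84), and was also higher in J2 (1.68) and Z22 (1.59). The collagenase Mmp13 was higher with both compounds in total RNA (4.20 and 2.16). In J2, 0 of 9 were higher and 5 lower with ADAR1i-124, and 2 higher and 4 lower with 5-Aza-CdR, and in Z22 1 of 8 was higher and 5 lower, and 2 of 9 higher and 4 lower. Without centring these Z22 counts were 2 and 2, and 4 and 3, and those of total RNA 1 and 3 with ADAR1i-124 and 8 and 0 with 5-Aza-CdR. Of 9 collagen receptor genes, 1 of 6 tested was higher (the integrin chain Itga2) and 2 lower (Itga1 and Itga10) with ADAR1i-124 in total RNA, and 2 (Itga2 and the receptor kinase Ddr1) were higher and 0 lower with 5-Aza-CdR. Itga2 and Itga10 lie below the level set for naming genes of a list, like P4ha3, and were named after their values were seen. In J2 these counts were 0 and 2, and 1 and 1, and in Z22, of 5 tested, 0 and 0, and 1 and 0, or 1 and 0, and 3 and 0, without centring. Ddr2, a receptor kinase for fibrillar collagen, was at 817 CPM in J2 and 998 in total RNA with DMSO and within the line with both compounds in total RNA.

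The 12 TGF-beta ligands and target genes of TGF-beta and YAP, a co-activator that responds to matrix stiffness, divided by compound in total RNA, with 7 of 12 higher and 0 lower with ADAR1i-124, and 3 of 11 higher and 5 lower with 5-Aza-CdR. Acta2, smooth muscle actin, was at 29.3, 386 and 3.41 CPM, and Ccn2, a growth factor of the matrix, at 106, 467 and 7.84. In J2 these 2 moved as in total RNA (1.89 and −3.12 for Acta2, 1.78 and −2.79 for Ccn2). In Z22 Acta2 changed by 0.82 and −1.64 and Ccn2 by −0.70 and −1.30. Tagln, an actin-binding protein, was at 1.18, 25.9 and 0.607 CPM in total RNA and also higher with ADAR1i-124 in J2 (2.01). The matrix protein Tgfbi went the other way in J2: it was at 0.705, 3.29 and 173 CPM in total RNA, changes of 1.75 and 7.11, and changed by −2.93 and −2.85 in J2. Over the list, J2 had 5 of 12 higher and 2 lower with ADAR1i-124 and 1 of 11 higher and 6 lower with 5-Aza-CdR, and Z22 had 0 of 12 higher and 2 lower, and 1 of 11 higher and 6 lower. Without centring the Z22 counts were 4 and 2, and 3 and 2.

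Summed marker genes of cells other than melanoma were highest with 5-Aza-CdR in total RNA. The 6 fibroblast markers summed to 177, 56.6 and 451 CPM with DMSO, ADAR1i-124 and 5-Aza-CdR in total RNA, and to between 39.2 and 118 CPM in the precipitated and IgG libraries. Pdgfrb held most of the DMSO sum, at 169 CPM in total RNA with DMSO, 30.6 with ADAR1i-124 (−2.36) and 156 with 5-Aza-CdR (−0.18). Fap was at 2.53, 0.624 and 14.5 CPM. Of the others Thy1 had no count in any library used and Lum had counts in total RNA with 5-Aza-CdR alone (1.01 CPM), while Dcn was at 129 CPM in total RNA with 5-Aza-CdR and at most 4.42 elsewhere. Pdgfra was at 5.23, 25.4 and 150.4 CPM in total RNA and 43.2 in J2 with DMSO. The 3 endothelial markers summed to 4.06, 18.4 and 83.0 CPM in total RNA, nearly all from Cdh5, and the 3 leukocyte markers to 8.40, 20.5 and 77.5, nearly all from Cd68. The 3 epithelial markers summed to at most 2.29 CPM in total RNA. In J2 and Z22 the endothelial sums ran from 3.75 to 61.7 CPM, the leukocyte sums from 6.88 to 59.999, and the epithelial sums from 0 to 13.6, mostly of Krt8. Pecam1, Kdr, Ptprc and Csf1r, the other defining markers, were at most 2.30 CPM. The part of these markers in the collagen values was not tested.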

How the data were processed

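The data were 1 table of read counts per gene (Ensembl identifiers), with 1 column per library. The counts were made by the authors from paired 150-base reads, mapped with STAR 2.7.10b within snakePipes 2.8.0 to build GRCm38 (mm10), and were deposited without normalization. The counting tool, its strand setting and its treatment of reads shared by genes are not given in the sources used here. Such settings matter for the 13 members whose exons overlap those of another gene. Of 54532 identifiers, 54495 had a symbol in GENCODE M21 and 37 did not.

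Counts were scaled by library total, which ranged from 8167960 to 34571822 among the 12 libraries used. The total RNA library of the combination (1245894 counts) was left out. For each of 10 pairs of libraries, log2(CPM + 0.5) was subtracted, genes with a mean below 1 CPM were dropped, and the median of the rest was set to 0. Each condition had 1 library, so no test or p-value is given. Intervals are exact binomial 95% intervals (scipy 1.17.1) and cover counting error only. The members and lists were chosen with earlier results of these data known. Values in each library were given for members whose mean reached 5 CPM, and values or counts for those past 2-fold in total RNA. Any gene of the cell type marker lists could be named. Of each other list at most 5 genes were named, those with the greatest change in total RNA whose mean over the 2 libraries reached 10 CPM, apart from P4ha3, Itga2 and Itga10. Alternatives were scaling without centring by library total, by TMM (edgeR 4.0.16) or by DESeq2 1.42.0 size factors, a total without the 20 highest genes, pseudocounts of 0.1 and 2 CPM, other filters (against IgG also by the IgG level or by the mean over the 12 libraries), protein-coding genes only, members free of exon overlap, and a 4-fold line. The change calculation was tested on simulated counts of total RNA with ADAR1i-124 and DMSO, where it placed 200 of 200 genes changed by 4-fold and 200 of 200 changed by 8-fold past 2-fold. Python 3.11.15 and R 4.3.3 were used.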

Additional observations from a re-analysis of the deposited data

Results flagged for a closer look

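Some chain genes differed from DMSO in opposite directions in total RNA and in precipitated RNA, by at least 2-fold in each of total RNA, J2 and Z22. The difference between the RNA types was not tested, since each condition has 1 library. With ADAR1i-124 the centred log2 change of Col1a2 was 2.53 in total RNA, −3.97 in J2 and −4.01 in Z22. For Col27a1 it was 1.88 in total RNA, −1.41 in J2 and −1.92 in Z22. The type IV chain Col4a1 had 4.54 in total RNA, −3.27 in J2 and −2.47 in Z22, and Col4a2 had 5.14 in total RNA, −3.01 in J2 and −2.68 in Z22. With 5-Aza-CdR the change of Col1a2 was 2.45 in total RNA, −5.97 in J2 and −8.67 in Z22. Col4a1 had 4.0 in total RNA, −4.46 in J2 and −5.35 in Z22, Col4a2 had 4.52 in total RNA, −3.82 in J2 and −5.26 in Z22, and Col6a3 had 2.92 in total RNA, −3.87 in J2 and −4.31 in Z22. Both treatments share the DMSO library of each RNA type. For these genes that library was the lowest of total RNA and the highest of J2 and of Z22. These directions rest on the labels as given, and an exchange of DMSO and treated libraries was not tested. Among other genes both opposite and shared directions occurred, and those named here were chosen after their values were seen. Over all genes, 9.23% of 986 higher with ADAR1i-124 in total RNA were at least 2-fold lower in both J2 and Z22, as were 5.13% of 1775 with 5-Aza-CdR. Fbn1, a fibrillin of elastic fibres, changed by 2.11 in total RNA, −1.90 in J2 and −2.67 in Z22 with ADAR1i-124, and by 1.49, −2.39 and −3.88 with 5-Aza-CdR. The endothelial marker Cdh5 ran opposite with ADAR1i-124 (2.22, −1.26 and −1.58) and was higher throughout with 5-Aza-CdR (4.22, 2.74 and 1.03). In total RNA and J2, Acta2 changed by 3.79 and 1.89 with ADAR1i-124 and by −2.99 and −3.12 with 5-Aza-CdR, and Ccn2 by 2.23 and 1.78 and by −3.74 and −2.79.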

How the results depend on the processing

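No paired analysis was possible because each comparison sets 1 library against 1 other, and the labels give no replicate numbers. Member medians kept their sign in all 10 comparisons under all 10 alternatives. That of the combination against 5-Aza-CdR in Z22 fell from 0.19 to 0.01 without centring. Those in precipitated RNA came nearer to 0 when genes with at least 1 count were admitted, which adds members near the detection floor: with ADAR1i-124 they were −0.75 in J2 and −0.93 in Z22, with 5-Aza-CdR −0.50 and −0.56, and with the combination against DMSO −0.17 and −0.76. Scaling by library total without centring gave −1.11 for ADAR1i-124 in Z22. Under that scaling, 0 members were higher and 14 lower with ADAR1i-124 in Z22, 2 higher and 13 lower with 5-Aza-CdR, 1 higher and 12 lower with the combination against DMSO, and 5 higher and 2 lower with the combination against 5-Aza-CdR. In the same order, the shares of all genes higher and lower were 42.9% and 5.13%, 52.1% and 4.10%, 43.4% and 5.03%, and 2.28% and 7.11%. In total RNA 6 members were higher and 6 lower with ADAR1i-124 (7.71% and 8.70%), and 15 and 1 with 5-Aza-CdR (17.0% and 8.96%). At a 4-fold line, 1 member was lower with ADAR1i-124 in total RNA, 11 in J2 and 10 in Z22, 6 were lower with the combination against DMSO in J2, 1 was higher with 5-Aza-CdR in J2, and 3 were higher with the combination against 5-Aza-CdR in Z22. A minimum mean of 10 CPM left 11 members lower with ADAR1i-124 and 0 higher with 5-Aza-CdR in J2. Of the members lower with ADAR1i-124 in total RNA, 0 were past a 4-fold line in all 3 RNA types. Shares of all genes were not counted at the 4-fold line or the 10 CPM filter, so these counts have no background beside them. Over the 17 members with at least 1 CPM in IgG, a filter chosen after seeing the data, 3 and 6 rather than 9 and 11 were higher than IgG with 5-Aza-CdR in J2 and Z22, and 4 rather than 8 with the combination in J2. With that filter 8 and 4 members were lower than IgG with 5-Aza-CdR in J2 and Z22. The medians there turned sign, to −0.56 and −0.02. Readings with a single antibody were chosen after seeing the data. With J2 alone, the 5 members lower with ADAR1i-124 in total RNA were also lower (all genes 345 of 926), and of the 13 members higher with 5-Aza-CdR and tested in total RNA and J2, whether tested in Z22 or not, 1 (Col6a4) was higher and 8 were lower (all genes 540 and 184 of 1941). With Z22 alone, 8 of 11 were lower (all genes 430 of 1839). Of 136 member changes past 2-fold, none turned direction under 1189 alternative values and 56 of these values came within the line, mostly in Z22 without centring or at a pseudocount of 2 CPM, where Col20a1 (0.96) and Col6a4 (0.99) with 5-Aza-CdR in total RNA also did. The depth limits members below 1 CPM, for which 3 counts stand for 0.0868 to 0.367 CPM.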
